A study of Mus musculus with 2 samples.

Results

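The C/EBP genes and Ddit3, which encodes CHOP, were described in RNA from marrow cells of mice grown together with ID8 tumour cells. Of the 6 listed genes (Cebpa, Cebpb, Cebpd, Cebpg, Cebpz and Ddit3), 5 had at least 1 probe set whose only gene symbol was theirs. Together these 5 genes had 10 probe sets, out of 45037 probe sets and 18193 named genes on the array. Cebpz was not analysed here, since the annotation tied no probe set to its symbol alone. The granulocyte factor gene Cebpe is not among the listed genes and was not analysed either. No member shared a probe set with another symbol (0 probe sets).

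Marrow was taken from C57BL/6 femurs and grown in RPMI-1640 with 5% serum. In the ID8-induced sample they lay below ID8 cells, a mouse ovarian epithelial tumour line, in a 24-well transwell plate for 4 days. The title of that sample names supernatant as the inducer, and the labels write the line both as ID8 and as 1D8. For the control, the labels name marrow cells and no tumour cells among its characteristics, and both samples carried the phenotype CD11b+Gr1+, the surface signature of myeloid-derived suppressor cells (MDSC). The sources used here do not state how many mice were pooled, whether cells were sorted or how long the control was cultured.

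With 1 array in each group, the signals carry no error between replicates and differences cannot be tested. The next row held a higher value in 6.89% of steps down the control column and in 49.9% of steps down the ID8-induced column. The control values thus descend along the table and are not tied to probe sets, and no fold change was formed. All signals below are from the ID8-induced array. In bulk RNA, fewer cells of a type and less RNA per cell cannot be told apart.

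C/EBP proteins are basic leucine zipper (bZIP) transcription factors: a zipper holds a pair of subunits together, and the basic regions grip the DNA. C/EBP alpha starts the granulocyte programme in steady-state marrow, C/EBP beta takes over when infection or a tumour demands many granulocytes, and C/EBP delta joins it in the acute phase response. C/EBP gamma lacks an activation domain of its own and works through its partners, while CHOP appears under endoplasmic reticulum and amino acid stress, pairs with C/EBP subunits and turns them away from classical C/EBP sites. CEBPZ shares the name but is not a bZIP protein. It is related to nucleolar factors of ribosome assembly.

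Promoter sequences came from RefSeq (GRCm38.p6) and were found for 4 of the 6 listed genes, Cebpa, Cebpb, Cebpg and Ddit3. The stretches below end at the base before the annotated transcription start and run 5′ to 3′ on the strand of the gene. They are shown because each holds a match to a known promoter element, and Cebpg and Ddit3 hold the same one. Capitals mark the element named after each gene, chosen after the scan.
Cebpb, chr2:167688665-167688914, plus strand, cores of the cAMP response element: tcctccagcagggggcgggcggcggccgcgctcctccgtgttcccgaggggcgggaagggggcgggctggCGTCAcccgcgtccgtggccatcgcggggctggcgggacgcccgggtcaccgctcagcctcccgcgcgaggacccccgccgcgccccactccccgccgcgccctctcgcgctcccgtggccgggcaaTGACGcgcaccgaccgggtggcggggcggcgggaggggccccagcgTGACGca
Cebpa, chr7:35119193-35119292, plus strand, TATA box: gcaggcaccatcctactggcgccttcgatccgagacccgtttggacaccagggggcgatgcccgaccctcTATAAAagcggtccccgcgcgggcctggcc
Cebpg, chr7:35056567-35056666, minus strand, inverted CCAAT boxes: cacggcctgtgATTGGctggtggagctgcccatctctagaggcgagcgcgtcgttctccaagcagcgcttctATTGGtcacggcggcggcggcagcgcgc
Ddit3, chr10:127290693-127290792, plus strand, inverted CCAAT box: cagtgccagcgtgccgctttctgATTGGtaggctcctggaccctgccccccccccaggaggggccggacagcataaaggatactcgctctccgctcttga

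In a scan of the 250 bases before each start, on both strands, the Cebpb promoter held 3 copies of TGACG, the core of the cAMP response element bound by CREB and ATF proteins. They began 180, 53 and 7 bases before the start, and the first lay on the other strand. At least 1 copy was present in 17.8% of 32851 promoters and at least 3 in 0.688%. The same promoter held 5 copies of GGGCGG, the site of Sp1-type factors, and the first and second of these overlapped. At least 5 copies were present in 1.93% of all promoters. The Cebpa promoter held TATAAA 30 bases before the start (present in 12.4% of promoters). Inverted CCAAT boxes, the site of NF-Y, began 89 and 28 bases before the start of Cebpg and 77 bases before that of Ddit3. A CCAAT box on either strand was present in 33.8% of promoters and at least 2 in 10.1%.

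None of these 4 promoters held the C/EBP palindrome TTGCGCAA (0.164% of promoters), the looser C/EBP site TTGCNNAA, which includes it (9.56%), or the C/EBP-ATF composite TTGCATCA (0.791%). They also held no full cAMP response element TGACGTCA (1.55%), which contains the core, no STAT site TTCNNNGAA (7.02%) and no endoplasmic reticulum stress element ERSE (0.113%), which begins with a CCAAT box. Only exact matches to the searched letters were counted, so an element with a changed base was missed. The ERSE was searched as a CCAAT box followed at a fixed distance by a further block of letters. The inverted CCAAT box of Ddit3 begins such a near match, in which that block differs from the searched letters by a single base. The absence of the ERSE from Ddit3 therefore holds for the exact letters only. Matches describe letters in a window and do not show binding, and elements outside the 250 bases were not searched. The GC content of the 4 promoters was 64.8% (Ddit3), 66.4% (Cebpa), 70.8% (Cebpg) and 81.6% (Cebpb). All lay above the upper quartile of the table (61.2%, with a median of 52.4%). Motifs rich in G and C move with GC content, and its part in these matches was not tested.

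The values are MAS5 signals, intensities on a linear scale with 1 value per probe set. A percentile is the share of the array's probe sets with a lower signal. The floor is the signal at the 40th percentile, 68.8, and was used because no detection calls were given. All 10 member probe sets lay at or above it, as did 60% of all probe sets. By brightest probe set 5 of 5 genes passed, against 71.3% of all named genes, so the count alone says little. The brightest probe set reached the 90th percentile (a signal of 620) in 4 of the 5 genes, against 14.8% of all genes. Probe sets differ in how well they hybridise, so percentiles place a signal on the array and do not rank transcripts by abundance.

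**Figure D1:**
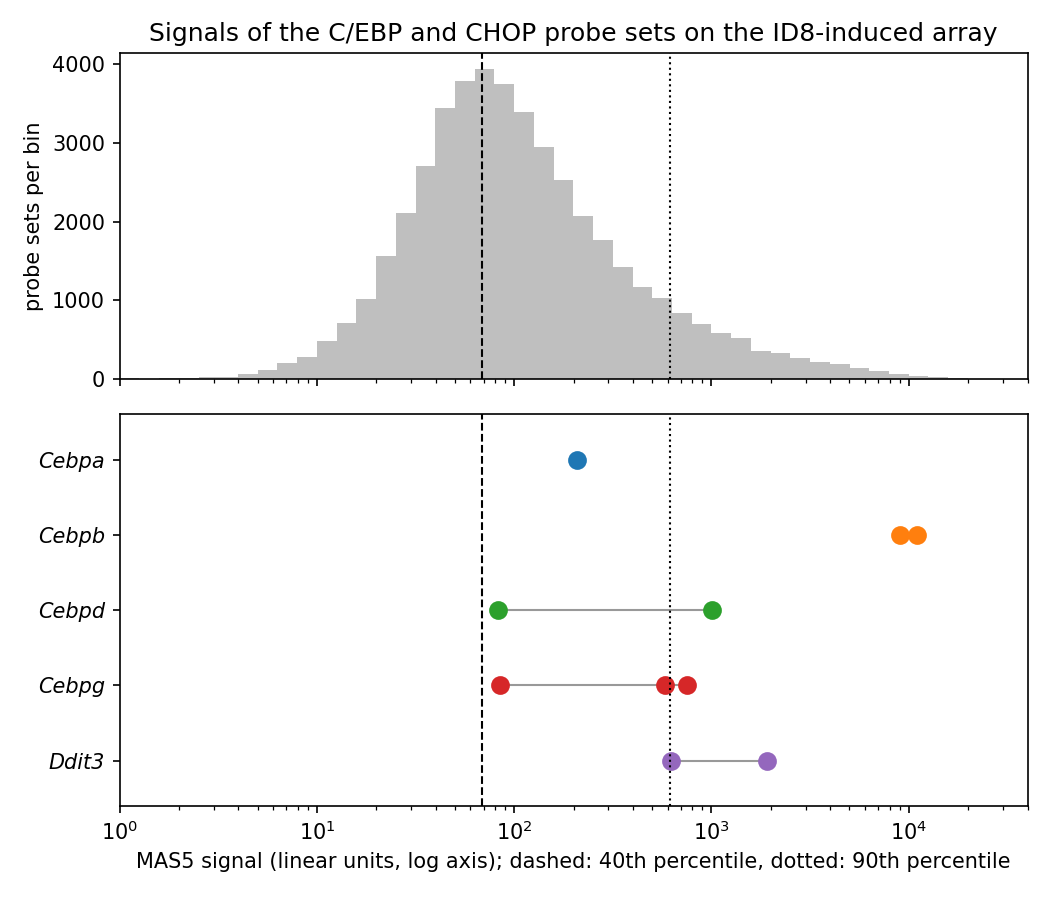
The upper panel counts all 45037 probe sets of the ID8-induced array by MAS5 signal on a log axis, and the lower panel shows each member probe set as a point, joined by a line within a gene. The dashed line is the floor (68.8) and the dotted line the 90th percentile (620). Both Cebpb points (8995 and 10975) lie far to the right, while Cebpd and Cebpg each have a point just above the floor.

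Cebpb, the factor of emergency granulopoiesis, read 10975 on probe set 1418901_at and 8995 on 1427844_a_at. Only 67 and 113 probe sets of the array were brighter, which put these signals at the 99.8th and 99.7th percentile. The ratio of the brighter to the dimmer was 1.22. Among 9009 genes with several probe sets and no signal at 0 the median ratio was 3.01, with quartiles of 1.75 and 6.23, and 8.71% had a smaller ratio than Cebpb. The 9009 genes were not matched in their number of probe sets, and a ratio of brightest to dimmest tends to rise with that number. Cebpb has a single messenger from which long activating and short inhibitory C/EBP beta proteins are translated. Its signals therefore carry no information on the balance of the protein forms.

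Cebpa, the factor that starts granulocyte commitment, had 1 probe set, 1418982_at, which read 209. This signal lay at the 74.6th percentile of probe sets and at the 65.3rd percentile of gene signals, 3.04 times the floor. With a single probe set there was no second reading on the array to set beside it. It was the only measured gene of the family without a probe set at the 90th percentile.

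Cebpd, the acute phase partner of Cebpb, gave readings that disagreed. Probe set 1423233_at read 1004 (93.6th percentile) and 1456605_at read 82.3 (46.9th percentile, 1.20 times the floor). Their ratio of 12.2 was larger than that of 87.9% of genes with several probe sets, whatever the number of sets. Which of the readings follows the Cebpd transcript cannot be told from these data, so its level is given only as this range.

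Cebpg, the partner without an activation domain, had 3 probe sets. 1451639_at read 754 (91.7th percentile), 1425262_at read 578 (89.4th) and 1425261_at read 84.5 (47.9th). The first and second lay close together and the third stood near the floor, a ratio of 8.92 from brightest to dimmest. All 3 are annotated to the same sequence record. Among 3788 groups of probe sets that share a gene and a record, the median ratio was 2.02 and 92.6% had a smaller ratio than Cebpg. These groups were not matched to Cebpg in their number of probe sets either.

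Ddit3 read 1910 on 1417516_at (96.7th percentile) and 625 on 1443897_at (90.1st percentile). Both readings of this stress gene were at or above the 90th percentile, and their ratio of 3.06 was close to the median over genes. Averaged over its probe sets on the log2 scale, Ddit3 read 1092, Cebpb 9936, Cebpg 333 and Cebpd 287. The means of Cebpg and Cebpd thus lay at the 82.9th and 80.5th percentile, below the 90th.

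**Figure D2:**
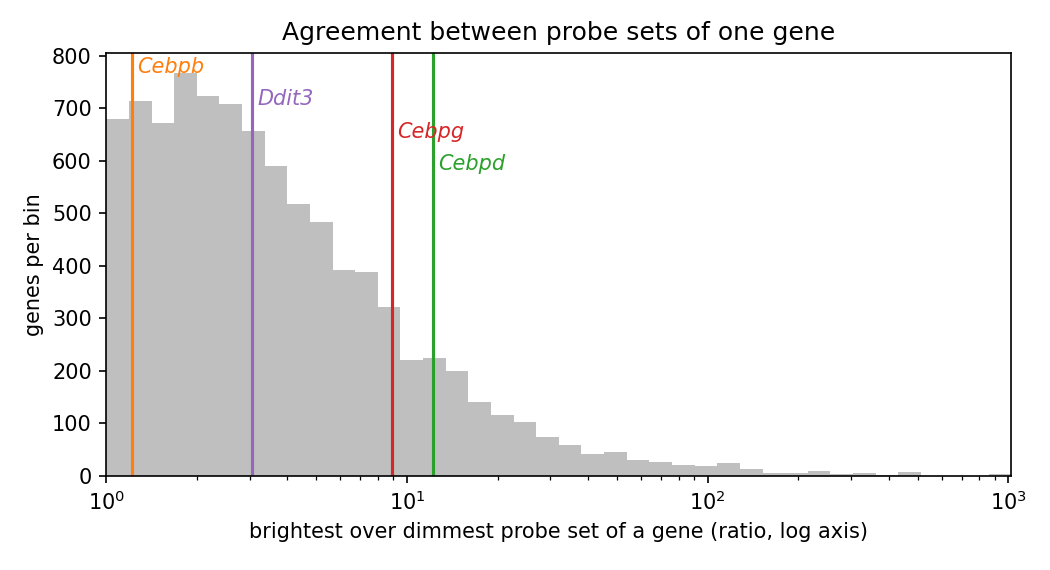
Grey bars count genes by the ratio of their brightest to their dimmest probe set, on a log axis, for the 9009 genes with several probe sets and no signal at 0. Coloured lines mark Cebpb (1.22), Ddit3 (3.06), Cebpg (8.92) and Cebpd (12.2), so Cebpb is among the genes whose probe sets differ least. Genes were not matched in their number of probe sets.

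The labelled phenotype was compared with its markers. Itgam, which encodes CD11b, read 2375 (97.4th percentile). The genes of the Gr1 antigens, Ly6g, Ly6c1 and Ly6c2, had no probe set named for them alone, so that side of the label was not checked. The other neutrophil markers read 3517 (Mmp9), 2569 (Cxcr2) and 2138 (Cd177), so all 4 measured markers of the 7 listed lay between the 97.1st and 98.4th percentile.

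Markers of other cells that the culture could hold were counted beside the 71.3% of all genes that passed the floor. In the macrophage and dendritic cell list 4 of 10 passed, with percentiles from 5.00 to 95.6. Adgre1 (F4/80) read 1443, C1qb 365, Flt3 165 and Siglech 75.9, while Cd163 read 17.1, Xcr1 32.2, C1qa 35.0 and Mrc1 35.1. On the dimmest of its 3 probe sets C1qb read 18.7, below the floor. Lymphoid markers passed in 5 of 7 cases (36.3rd to 78.9th percentile), a share of 71.4% that is close to that of all genes. The B cell genes Cd79b, Ms4a1 and Cd79a read 261, 141 and 136 and the T cell gene Cd8a 197. On their dimmest probe sets Ms4a1 and Cd8a read 19.2 and 21.2, below the floor. Cd3g and Ncr1 lay below the floor at 62.3 and 65.2. Erythroid markers passed in 2 of 5 cases (14.5th to 96.3rd percentile), with Alas2 at 1693 and Epor at 161, while readings under the floor came from Klf1 (55.9), Hba-a1 (51.3) and Car1 (31.2). Epithelial markers, which ID8 cells could carry over, passed in 5 of 8 cases (7.61st to 68.1st percentile), with Epcam at 159, Krt8 at 107, Krt18 at 94.9 and Msln at 87.8. Under the floor were Cdh1 (21.6), Krt19 (46.0) and Wt1 (52.3). The dimmest probe sets of Epcam (58.3), Krt8 (46.6) and Upk3b (42.7) were also under it. Upk3b passed with 75.8 on its brighter probe set. No marker was listed at 0. The part of these cells in the C/EBP and Ddit3 signals was not tested.

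Genes known to induce C/EBP factors or to control their activity passed the floor in 23 of 23 measured cases (71.3% over all genes). The median percentile of this list was 92.3, against 61.4 over all named genes. Among the receptor genes Csf2rb (the shared beta chain of the GM-CSF receptor) read 4163, Csf3r (the G-CSF receptor) 3346 and Csf2ra (the GM-CSF receptor alpha chain) 1877. Id2, an inhibitor of helix-loop-helix factors, read 2478. Stat3, which carries G-CSF and IL-6 signals to Cebpb, read 1738 on the brightest and 234 on the dimmest of its 4 probe sets. Spi1 (PU.1), the partner of C/EBP alpha in myeloid commitment, read 1325. Cop1, a ubiquitin ligase that together with Tribbles proteins removes C/EBP alpha, read 1333. Of the Tribbles genes, Trib1 read 554 (127 on its dimmer probe set) and Trib2 90.7 (13.3 on its dimmest). Klf4 (72.4) was the lowest of the list, with 61.8 on its dimmer probe set, below the floor. Il6st, the shared IL-6 receptor chain, read 162 with 36.4 on the dimmest of its 4 probe sets.

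Factors that can pair or cooperate with C/EBP subunits or CHOP passed in 17 of 17 cases (71.3% over all genes). Their median percentile was 94.2. Jun read 6154, Junb 4603, Nfil3 (a bZIP repressor) 4315 and Jund 4174. Jund disagreed with its second probe set at 57.0, below the floor. Atf3, which like CHOP is induced by stress, read 3572, and Fos 3353. Atf4, the inducer of Ddit3 and a partner of C/EBP gamma, read 3434 on the brightest and 61.4 on the dimmest of its 3 probe sets, the latter below the floor. Batf (1098) and Atf2 (644) also reached the 90th percentile. The circadian and liver-type members Dbp, Hlf and Tef read 103, 98.9 and 235, and Atf5 and Batf2 read 95.7 and 87.7. The dimmer probe set of Hlf read 68.6, just below the floor.

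Granulocyte and monocyte genes described as C/EBP targets passed in 16 of 16 cases (71.3% over all genes). Of these, 13 reached the 90th percentile (14.8% over all genes). The median percentile of the list was 99.6. S100a9 and S100a8 (calprotectin) read 24857 and 20545, Lcn2 (lipocalin 2) 21448 and Ngp (neutrophilic granule protein) 18326. Lyz2, Cd14, Camp (cathelicidin) and Mmp8 (neutrophil collagenase) lay between 9648 and 10887. The primary granule genes are targets tied to C/EBP alpha at the promyelocyte stage. Of these, Mpo, Elane and Ctsg read 278, 301 and 413, at the 80.0th to 85.7th percentile, and were the only genes of the list below the 90th. Prtn3 (proteinase 3), also of the primary granules, read 1229 (94.8th percentile).

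Inflammatory and suppressor-cell targets of C/EBP beta and delta passed in 15 of 16 cases (71.3% over all genes), with a median percentile of 98.1. Ccl3 read 16508, Hp (haptoglobin) 11798, Il1rn 8377 and Saa3 (serum amyloid A3) 6710, the latter with haptoglobin a classical acute phase gene. Arg1 (arginase 1), whose enhancer C/EBP beta binds in macrophages, read 6587. Il6, from whose promoter C/EBP beta was first named NF-IL6, read 570 (89.2nd percentile). Ptx3 lay below the floor at 59.6, and Il12b read 184 with 52.6 on its dimmer probe set.

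Liver and fat genes that C/EBP alpha and beta control in those tissues passed the floor in 5 of 10 measured cases (71.3% over all genes), and 0 reached the 90th percentile (14.8% over all genes). The median percentile was 37.5, against 61.4 over all genes. Tat (tyrosine aminotransferase) read 167, Ttr (transthyretin) 137, Apoa1 121 and Pparg 112. Below the floor were Adipoq (adiponectin) at 13.7, G6pc at 17.9, Pck1 at 35.5 and Alb (albumin) at 51.2. Ttr, Apoa1 and Fabp4 (77.4) each had a probe set below the floor as well.

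Upstream of CHOP, unfolded protein and stress kinase genes passed in 11 of 11 cases (71.3% over all genes), with a median percentile of 82.9. Xbp1 and the chaperone genes Hspa5 (BiP) and Hsp90b1 read 4583, 4392 and 1350. Atf4 stands in this list too. The eIF2 alpha kinases, which raise ATF4 translation, read 301 (Eif2ak2, PKR), 278 (Eif2ak3, PERK), 268 (Eif2ak1) and 117 (Eif2ak4, GCN2). None of the 4 kinase genes reached the 90th percentile, and Eif2ak3 read 61.8 on its dimmest probe set, below the floor.

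Downstream of CHOP and ATF4, 15 of 16 measured genes passed (71.3% over all genes), with a median percentile of 92.1. The 90th percentile was reached by 10 of them (14.8% over all genes). Ero1a (an oxidase of the endoplasmic reticulum) read 12875 on the brightest and 12059 on the dimmest of its 3 probe sets. Ddit4, an inhibitor of mTORC1, read 7347. Both genes are also known hypoxia genes. Ppp1r15a (GADD34), which reverses the eIF2 alpha block, read 1665 and Bcl2l11 (BIM), a death gene raised by CHOP, 1536. Trib3, a pseudokinase that CHOP and ATF4 induce together, read 337 and 320 on its probe sets (83.0th and 82.3rd percentile). The lowest of the list was Tnfrsf10b, the death receptor gene described as a CHOP target, at 53.2 and below the floor. Chac1, a glutathione-degrading enzyme gene, read 171.

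Nucleolar assembly genes, the functional kin of CEBPZ, passed in 11 of 14 cases (71.3% over all genes) with a median percentile of 68.3. Npm1 (nucleophosmin) read 2921, Ncl (nucleolin) 1622 with 24.9 on its dimmest probe set, Noc2l 298 and Fbl (fibrillarin) 294. Rrp12, Nop14 and Utp20 lay below the floor at 29.2, 57.3 and 65.6. The share of this list at the 90th percentile, 14.3%, was near that of all genes (14.8%).

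**Figure D3:**
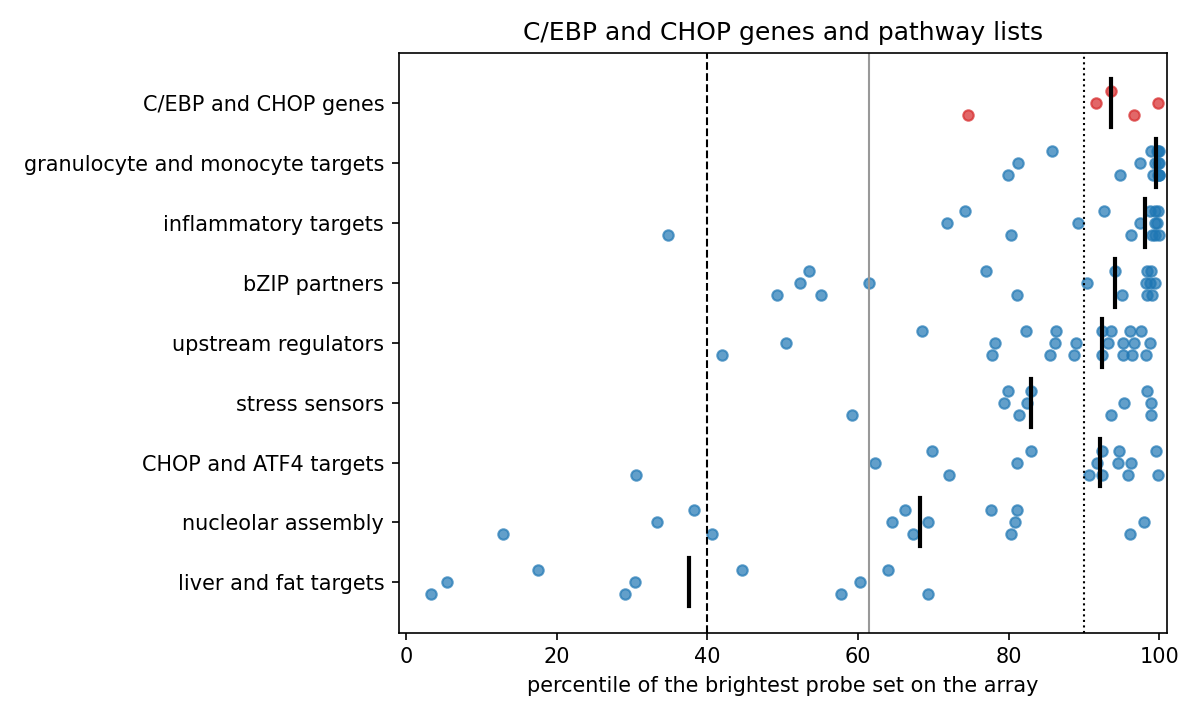
Each point is a gene at the percentile of its brightest probe set on the ID8-induced array, and thick bars are list medians. The dashed line is the floor, the dotted line the 90th percentile and the grey line the median over all named genes (61.4). Granulocyte and monocyte targets crowd at the right edge (median 99.6), while liver and fat targets spread to the left (median 37.5).

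The promoters of the target genes were scanned for the 2 sites through which the family acts. The C/EBP site TTGCNNAA stood within 250 bases before a start in 5 of 14 granulocyte and monocyte targets that had a promoter in the table (35.7%) and in 4 of 10 inflammatory targets (40%). Over all 27025 genes of the table the share was 10.8%. Liver and fat targets held it in 3 of 10 cases (30%). Of these, Alb (51.2) and Lep (53.0) lay below the floor, and Pparg read 112 (57.7th percentile). In the other pathway lists it was found in 1 of 15 bZIP partners (Jund), 1 of 19 upstream genes (Gfi1), 1 of 11 stress sensors (Xbp1), 2 of 15 CHOP and ATF4 targets (Slc7a11 and Vldlr) and 0 of 10 nucleolar genes. Among the marker lists it was found in 1 of 6 neutrophil (Ly6g), 1 of 8 macrophage and dendritic cell (Siglech), 1 of 6 lymphoid (Cd8a), 0 of 4 erythroid and 0 of 4 epithelial genes. These counts are small, and the lists were assembled from genes described as C/EBP targets.

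The following windows of 30 bases show the site in 7 of these targets, with TTGCNNAA in capitals on either strand. They were picked after the scan.
Ptgs2, chr1:150099951-150099980, plus strand: cgctgcggttcTTGCGCAActcactgaagc
Ngp, chr9:110419659-110419688, plus strand: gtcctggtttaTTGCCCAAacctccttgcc
Mmp8, chr9:7558399-7558428, plus strand: ttaggcagaagTTGCTCAAgatgtagcttt
Ltf, chr9:111019206-111019235, plus strand: aggcaggcctaTTGGGCAAtagggtggggc
Lcn2, chr2:32387937-32387966, minus strand: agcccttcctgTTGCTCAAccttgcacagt
Il6, chr5:30012975-30013004, plus strand: acgacgtcacaTTGTGCAAtcttaataagg
Saa3, chr7:46715757-46715786, minus strand: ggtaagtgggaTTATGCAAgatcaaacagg

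Ptgs2, the cyclooxygenase 2 gene, held the full palindrome 69 bases before its start and read 4732. Lep held the palindrome as well, 55 bases before its start, and read 53.0, below the floor. Ngp held a second site 11 bases before its start. In Il6 the site began 128 bases before the start, and in Lcn2, Saa3, Ltf (lactoferrin, which read 6324) and Mmp8 it began 216, 99, 75 and 19 bases before it. Of the 9 granulocyte, monocyte and inflammatory targets with a site, the remaining 2 were S100a9 (236 bases before its start) and Ptx3, which lay below the floor.

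The C/EBP-ATF composite TTGCATCA joins a C/EBP part to an ATF part and is the kind of element on which ATF4 and its C/EBP or CHOP partners act. It stood in 5 of 15 CHOP and ATF4 targets with a promoter (33.3%), against 0.918% of all genes. These were Chac1, Herpud1, Nupr1, Slc7a11 and Vldlr. It was also present in 1 of 15 bZIP partners, Atf3, and in 1 of 10 liver and fat targets, G6pc. The granulocyte, inflammatory, upstream, stress sensor, nucleolar and marker lists held 0. The share among CHOP and ATF4 targets is no independent result, since that list was assembled from genes described as their targets. The windows below show the composite in capitals on either strand.
Herpud1, chr8:94386306-94386335, plus strand: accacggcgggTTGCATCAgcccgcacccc
Nupr1, chr7:126625562-126625591, minus strand: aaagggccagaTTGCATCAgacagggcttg
Slc7a11, chr3:50443661-50443690, minus strand: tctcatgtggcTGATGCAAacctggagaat
Chac1, chr2:119351038-119351067, plus strand: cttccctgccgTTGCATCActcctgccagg
Atf3, chr1:191183425-191183454, minus strand: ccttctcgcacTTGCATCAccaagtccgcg

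Slc7a11, the cystine transporter gene, held 2 copies, 66 and 47 bases before its start, and read 1175. Herpud1, which serves degradation of misfolded proteins, held 1 copy 112 bases before its start and read 837. Nupr1, a stress-induced chromatin protein gene, read 765 and Vldlr, a lipoprotein receptor gene, 129. Signals of the listed genes with the composite thus ranged from 17.9 (G6pc) to 3572 (Atf3). Across the whole array a site did not mark bright genes: the median percentile was 58.1 for 1394 measured genes with TTGCNNAA and 59.0 for 107 with TTGCATCA, beside 62.6 for all 14452 measured genes with a promoter.

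**Figure D4:**
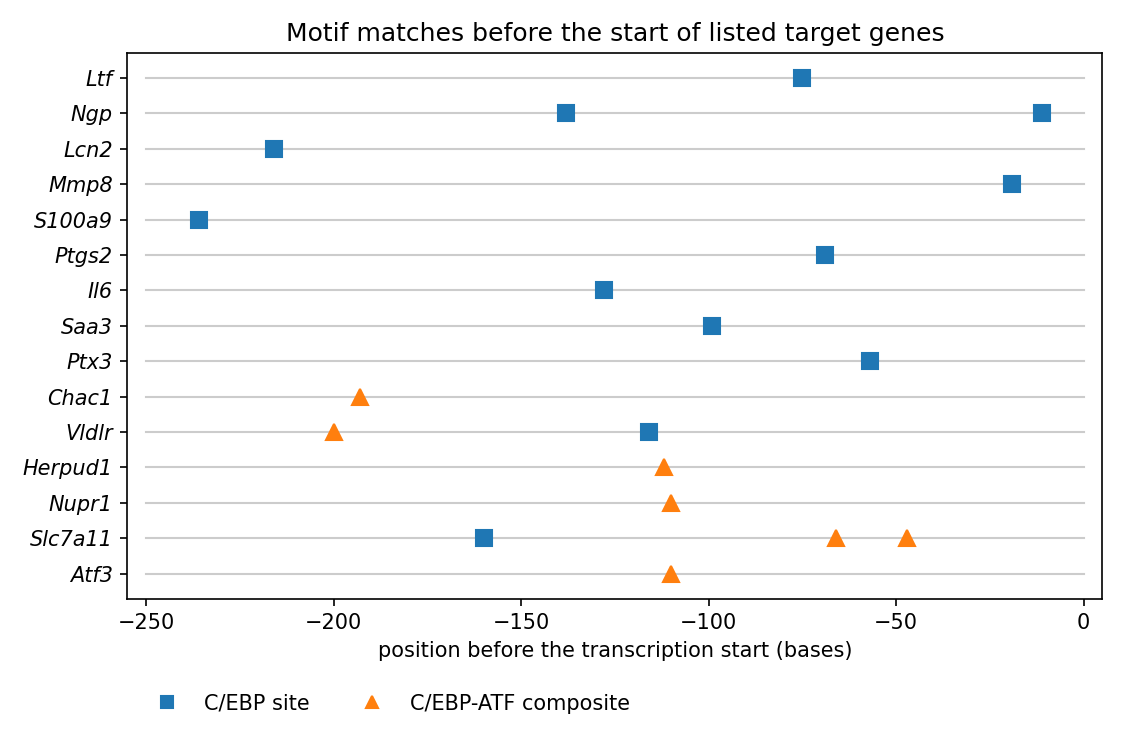
Each line is the 250 bases before the transcription start of a listed target gene, and marks show where a match begins, squares for the C/EBP site and triangles for the C/EBP-ATF composite. Matches from different starts of a gene share a line. Granulocyte and inflammatory targets carry squares only, and triangles mark the 5 CHOP and ATF4 targets and Atf3. Liver and fat targets are not drawn, among them G6pc, which also holds the composite.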

How the data were processed

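The authors deposited a linear signal intensity for each probe set, made with MAS5 per the submitters' processing notes. For MAS5 the version, the scaling target and any detection calls were not given in the sources used here. Gene symbols came from the platform annotation at GEO, in which 34945 probe sets had 1 symbol, 932 several and 9160 none, and the first kind was used. All 5 member symbols were current in RefSeq GRCm38.p6. Signals were used without further scaling. A gene outside the family was represented by its brightest probe set. The number of arrays limits the precision, and no test was possible.

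The members, 8 pathway lists and 5 marker lists were chosen with earlier results of these data known. Named were every member, the 4 strongest genes of each list, up to 4 of its genes below the floor, 7 genes that bear directly on a member, and further examples chosen after their values were seen. As alternatives the floor was moved to the 20th or the 60th percentile, or a gene was given by the mean log2 signal, the dimmest probe set or probe sets without a suffix letter. In promoters 10 motifs were searched, and protein sequences were not used here. Percentiles and motif positions were checked on simulated data. Python 3.11.15, numpy 2.4.6 and pandas 2.3.3 were used.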

Additional observations from a re-analysis of the deposited data

How the results depend on the processing

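All 5 measured member genes passed the floor under each alternative run, and of their 10 probe sets 8 passed with the floor at the 60th percentile (120), where the dimmest ones of Cebpd and Cebpg did not. The signals of Cebpd, Cebpg and Ddit3 moved by over 1.5 times with the mean or the dimmest probe set, as given above, and those of Cebpa and Cebpb did not. In 4 lists the number of genes passing the floor moved by over 1.5 times. With the dimmest probe set 12 of 17 bZIP partners, 19 of 23 upstream genes and 8 of 11 stress sensors passed. So did 16 of 16 granulocyte, 14 of 16 inflammatory, 14 of 16 CHOP and ATF4 and 8 of 14 nucleolar genes. Over all genes the share passing was 87.5% for the lower and 51.6% for the higher floor, 62.4% with the mean, 49.7% with the dimmest and 68.0% with suffix-free probe sets. Liver and fat targets passed in 3 of 10 cases with the floor at the 60th percentile, in 2 of 10 with the mean or the dimmest probe set and in 2 of 7 with suffix-free probe sets. Lymphoid markers passed in 3 of 7 cases with the mean or the dimmest. Erythroid markers passed in 4 of 5 with the floor at the 20th percentile and in 1 of 4 with suffix-free probe sets. Epithelial markers passed in 1 of 8 with the floor at the 60th percentile, in 3 of 8 with the mean, in 2 of 8 with the dimmest and in 3 of 5 with suffix-free probe sets. What causes these moves, beyond the changed floor or the changed use of probe sets in each setting, was not tested. No paired analysis was possible because each group had 1 array and the control values are not tied to probe sets.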

Other observations

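The protein-coding neighbours of the family on the chromosome were read from RefSeq order (GRCm38.p6) after the signals were known. Those of Cebpb, Tmem189 and Ptpn1, a tyrosine phosphatase gene, read 5636 and 3318, at the 99.3rd and 98.3rd percentile. Ddit3 stands between Mbd6 (373) and Mars1 (405), the methionyl-tRNA synthetase gene, and Cebpd between Mzt2 (139) and Spidr (1068). Cebpa and Cebpg lie near each other on chromosome 7, with the predicted gene Gm45095 between them, and their outer neighbours Slc7a10 and Pepd read 49.9, below the floor, and 218. Cebpz, which was not analysed here, stands between Cebpzos (207) and Ndufaf7 (481). Whether neighbouring signals are related was not tested.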
